A study of Homo sapiens with 60 samples.

Results

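A549 cells treated for 24 h with wortmannin were compared directly with A549 cells treated for the same time with the high dose of a Coptidis Rhizoma water extract (hereafter CR high). The 6 libraries, 3 for each treatment, were chosen by their sample labels out of 60 libraries in the series. A549 is a human lung adenocarcinoma line that grows as an epithelial sheet. The series profiled the RNA of these cells after water extracts of 6 medicinal plant materials at 3 doses each, next to a positive control and a vehicle control. Wortmannin at 10 µM is named as a positive control in the design text, and CR high was 130 µg/mL of extract. The vehicle was DMSO, given as 0.1% in the sample labels and as 2% in the design text, and it had 3 libraries. Medium (26 µg/mL) and low (5.2 µg/mL) doses of the same extract, and the low dose (20 µg/mL) of a Zizyphi Fructus extract (hereafter ZF low), also with 3 libraries each, were used as further points of comparison. Per the design text, the high dose of a more toxic extract was its IC20 where that lay below 500 µg/mL. A dose of a pure inhibitor and a dose of an extract are not on one scale, so differences in size between them belong to these concentrations only.

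Wortmannin is a fungal metabolite that binds covalently to phosphoinositide 3-kinases, the lipid kinases that relay growth factor signals to AKT and mTOR, and at higher concentrations it also inhibits related protein kinases such as mTOR and DNA-PK. Coptidis Rhizoma, the rhizome of goldthread, is known for isoquinoline alkaloids such as berberine, which act on mitochondrial respiration among other targets. Genes of mitosis and of DNA replication are transcribed in successive waves of the cell cycle, and the integrated stress response is a programme in which the transcription factor ATF4 raises genes for amino acid synthesis, amino acid transport and tRNA charging.

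Estimated read totals were 21768732 to 26031458 in the wortmannin libraries, 23979905 to 29138235 in the CR high libraries and 19191909 to 25002623 in the vehicle libraries, within a range of 17420358 to 36479611 over all 60. Levels are given as CPM, the read count scaled to a fixed library total. Fold changes are log2 values of 3 libraries against 3, with their standard error (SE) from edgeR's quasi-likelihood test. That test was fitted on all 60 libraries, so the SE and p-values rest on a spread estimated over all groups. A gene is called where the Benjamini-Hochberg adjusted p is under 0.05. Every replicate pair of the 3 groups correlated at 0.992 or above. The 8 epithelial and A549 markers summed to 18800 to 20000 CPM with wortmannin, 15300 to 15800 CPM with CR high and 17100 to 17500 CPM with vehicle, while 4 endothelial markers summed to at most 0.23 CPM in any of these libraries. The 10 blood cell markers summed to 4.96 to 5.71 CPM with wortmannin, 2.85 to 4.09 CPM with CR high and 3.37 to 3.75 CPM with vehicle. The 6 fibroblast markers summed to 8.41 to 9.74 CPM with wortmannin, 5.01 to 6.45 CPM with CR high and 6.4 to 7.4 CPM with vehicle. The epithelial, blood and fibroblast sums thus each lay higher with wortmannin than with CR high, while KRT7 and AKR1B10 among the epithelial markers went the other way. Of the blood markers, CD14 had 77 to 97 raw reads with wortmannin and 19 to 29 with CR high. ITGAM (25 to 43 against 50 to 53 reads) and HBA1 (0 to 1 against 5 to 9) went the other way. The remaining blood markers had at most 6 reads in any of these libraries. Levels depended on transcript length more steeply in the wortmannin libraries (slope on log2 scales 0.327 to 0.352) than in the CR high libraries (0.277 to 0.311), with 0.290 to 0.360 in vehicle, and fits with this slope as a covariate are given in the closing section. Sample codes begin with 1 for wortmannin, with 4 for CR high and with A1 for vehicle. Between these 3 groups, anything that this code marks cannot be told apart from treatment. Codes of the CR medium, CR low and ZF low libraries also begin with 4. Of 17129 tested genes, 2 were called between ZF low and vehicle and 5936 between CR high and ZF low. What the code marks was not tested.

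Set against each other, the treatments differed across a large share of the transcriptome. Of 17129 tested genes, 6854 (40.0%) were called in the direct comparison, 3452 (20.2%) higher and 3402 (19.9%) lower with wortmannin than with CR high. Of these, 425 were at least 2-fold higher and 312 at least 2-fold lower. Against vehicle, 4340 genes (25.3%) were called for wortmannin, 2295 higher (13.4%) and 2045 lower (11.9%). For CR high the count was 6020 (35.1%), with 3167 higher (18.5%) and 2853 lower (16.7%). These last comparisons share the vehicle libraries, so agreement between them is given below only as the counts that the sorting fixes.

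STC2 (stanniocalcin 2, ENSG00000113739, chr5:173314713-173329503 on GRCh38), a secreted glycoprotein induced by stress, had 7.88, 7.52 and 7.85 CPM in wortmannin libraries, 167, 166 and 159 CPM in CR high libraries and 28.4, 28.4 and 24.9 CPM in vehicle libraries. None of the 3 groups overlapped, with vehicle in between. The direct difference was -4.40 ± 0.07 (SE; edgeR adjusted p = 2.3e-41), or 21.1-fold lower with wortmannin. CHAC1 (ENSG00000128965), which degrades glutathione, differed by -4.28 ± 0.10, with 1.53, 1.53 and 1.37 CPM in wortmannin libraries against 29.5, 28.9 and 27.6 CPM in CR high libraries. ADM2, a peptide hormone of the calcitonin family, had 0.306 to 0.47 CPM in the wortmannin libraries and 11.4 to 12.4 CPM in the CR high libraries (-4.97 ± 0.21). NIBAN1, a regulator of translation under stress, was also lower with wortmannin (-3.58 ± 0.14), with 7.5 to 8.32 CPM in wortmannin libraries, 89.6 to 102 CPM in CR high libraries and 8.88 to 11 CPM in vehicle libraries, and it was not called between wortmannin and vehicle (-0.37 ± 0.16, edgeR adjusted p = 0.0854). Without the filter on low counts, in the 3 groups alone and with the length slope, that last difference was called (-0.37, -0.37 and -0.40). RAB39B, a small GTPase of vesicle traffic, was lower with wortmannin than with CR high by 3.11 ± 0.17 on the log2 scale.

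At the other end, CP (ceruloplasmin, the copper-carrying ferroxidase) had 8.95, 9.13 and 9.0 CPM with wortmannin, 2.38, 1.99 and 1.83 CPM with CR high and 5.03, 4.39 and 7.44 CPM with vehicle. It was 4.34-fold higher with wortmannin than with CR high (2.12 ± 0.22, edgeR adjusted p = 2.57e-11), and no group overlapped another. Its call against vehicle for wortmannin was lost without vehicle replicate 2 (0.55, adjusted p = 0.0658). SUSD2, a membrane protein with a sushi domain, had 36.1 to 40 CPM with wortmannin, 10.2 to 11.2 CPM with CR high and 23.7 to 24.3 CPM with vehicle (direct difference 1.83 ± 0.07). SCARA5, a receptor for ferritin, was higher by 1.80 ± 0.09 and GPR37, a G-protein-coupled receptor, by 1.99 ± 0.14. NPTX1 (neuronal pentraxin) was higher by 1.95 ± 0.09, with 369 to 415 CPM in wortmannin libraries, 98.6 to 106 CPM in CR high libraries and 340 to 376 CPM in vehicle libraries, so its wortmannin and vehicle levels overlapped.

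Genes were then sorted by their change from vehicle under each treatment. In all, 2252 genes were called in both, which is 51.9% of the genes called for wortmannin and 37.4% of those called for CR high. They divided into 785 higher with both treatments (4.58% of tested genes), 745 lower with both (4.35%), 357 higher with wortmannin and lower with CR high (2.08%) and 365 lower with wortmannin and higher with CR high (2.13%). Same-direction genes were thus 67.9% of those called in both. With ZF low in place of vehicle for CR high only, so that the comparisons share no library, an alternative added after seeing the data, the same order of classes gave 661, 705, 422 and 401 genes. Most genes that moved in the same direction were not separated by the direct comparison: 526 of the 785 and 480 of the 745 were not called between wortmannin and CR high, which does not show that they changed alike. All 722 opposite genes were called directly, which follows from how they were sorted.

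**Figure D1:**
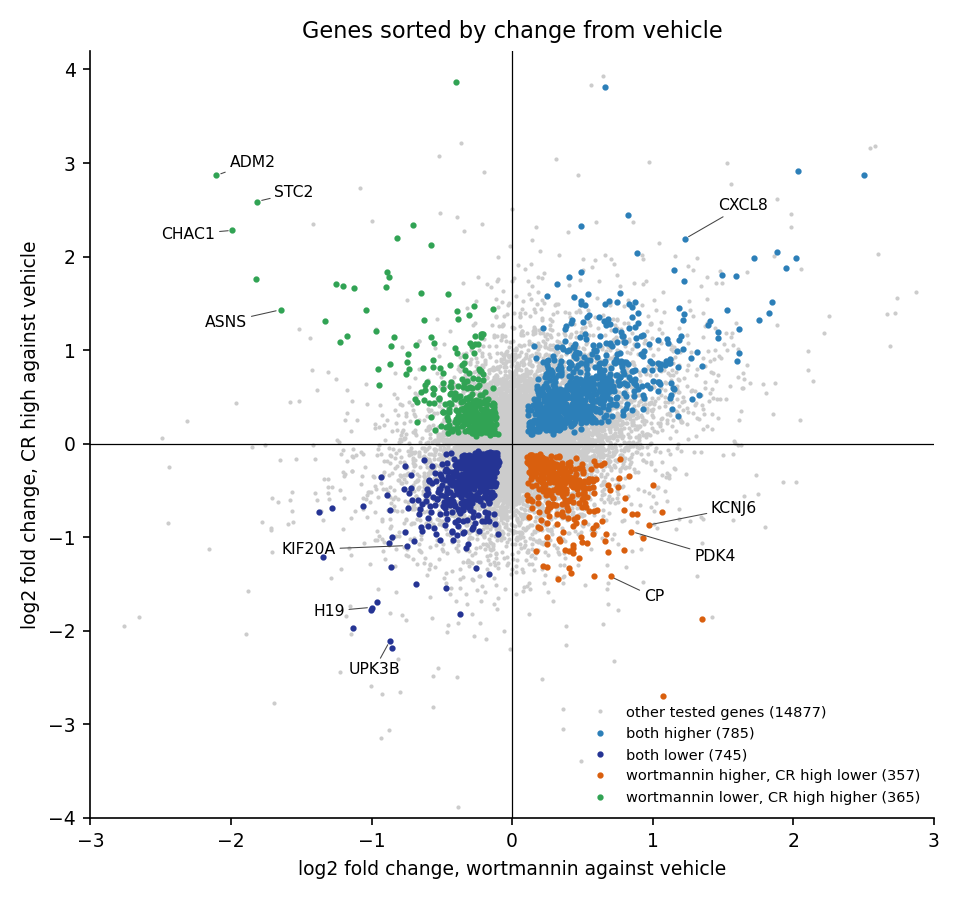
Log2 fold change from vehicle with wortmannin (x axis) and with CR high (y axis) for each tested gene, coloured by the 4 classes and grey for the rest. Both axes use the same vehicle libraries, so the axes are not independent, and 50 tested genes lie outside the drawn axes. The genes farthest into the upper left are ADM2, STC2 and CHAC1.

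Mitosis genes were lower than vehicle under both treatments, which is why these treatments were set side by side, and the direct comparison shows where they differ. Of 40 listed genes of spindle, kinetochore and cytokinesis, 37 were called lower with wortmannin (against 11.9% of all tested genes) and 40 with CR high (against 16.7%), with median changes of -0.45 and -0.65. The remaining 3, MKI67, CDK1 and ASPM, were called lower with CR high and not with wortmannin, whose values were -0.49 ± 0.20, -0.13 ± 0.08 and -0.37 (edgeR adjusted p = 0.0646, 0.235 and 0.113). These 3 calls depended on the fit: fitted on the libraries of the 3 groups only, or with the length slope as a covariate, all 40 were called lower with both treatments, and DESeq2 called MKI67 lower with wortmannin (adjusted p = 0.0357). Other wortmannin calls were lost. NDC80 was not called without the filter on low counts (edgeR adjusted p = 0.108) or with a replicate block (0.0508). With some single libraries left out, NDC80 (edgeR adjusted p up to 0.322) and INCENP (up to 0.151) were not called. The number called lower with both was 35 to 37 as single libraries were left out. Between the treatments, 24 of 40 were called higher with wortmannin, 1 was called lower and 15 were not called, beside 20.2% and 19.9% of all tested genes. The number called higher ranged from 17 to 24 as single libraries were left out, with 17 without wortmannin replicate 1. The median direct difference was 0.17 over the list and 0.006 over all tested genes. In bulk libraries, fewer dividing cells and less RNA per dividing cell cannot be told apart.

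Some mitosis genes were not called between the treatments, which does not show that they fell alike. PLK1 (ENSG00000166851), the polo-like kinase of mitotic entry, had 132, 126 and 121 CPM with wortmannin, 122, 125 and 120 CPM with CR high and 202, 194 and 202 CPM with vehicle. CCNB1, the cyclin that activates CDK1 at mitosis, had 151, 148 and 136 CPM with wortmannin, 145, 151 and 159 CPM with CR high and 228, 231 and 233 CPM with vehicle. The treated groups overlapped in both genes and lay below every vehicle library. The direct differences were 0.04 ± 0.03 for PLK1 and -0.06 ± 0.06 for CCNB1 (edgeR adjusted p = 0.32 and 0.435). CCNB2, the other B-type cyclin, HMMR, a spindle-associated hyaluronan receptor, PTTG1 (securin), BUB1, a spindle checkpoint kinase, and UBE2C, the ubiquitin-conjugating enzyme of the anaphase-promoting complex, were also not called directly, with differences of -0.06 to 0.06. With the transcript length slope as a covariate, UBE2C was called (0.16, edgeR adjusted p = 0.000755).

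CDC20, the activator of the anaphase-promoting complex, was the only listed mitosis gene called lower with wortmannin than with CR high. It had 95.3 to 111 CPM with wortmannin, 132 to 135 CPM with CR high and 166 to 172 CPM with vehicle, without overlap between any groups. The direct difference was -0.38 ± 0.06 (edgeR adjusted p = 1.31e-06).

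Larger falls with CR high were found in MKI67, the proliferation marker that coats mitotic chromosomes (352 ± 27.5 CPM with wortmannin, 224 ± 4.58 CPM with CR high and 495 ± 60.3 CPM with vehicle; SD, n = 3 each). Its direct difference was 0.66 ± 0.20 (edgeR adjusted p = 0.00723). KIF11, the motor that pushes spindle poles apart, had 151, 144 and 135 CPM with wortmannin, 90.8, 96.2 and 90.7 CPM with CR high and 176, 174 and 172 CPM with vehicle (direct difference 0.63 ± 0.06, adjusted p = 4.33e-13). CDK1, the kinase of mitotic entry, was 0.62 ± 0.08 higher with wortmannin, at 130 to 144 CPM against 84.9 to 92.3 CPM with CR high and 146 to 155 CPM with vehicle. INCENP (0.60 ± 0.12), ANLN (0.51 ± 0.07) and NUSAP1 (0.51 ± 0.05), which act in the chromosomal passenger complex, the cleavage furrow and the spindle, were higher as well. KIF20A, a kinesin of cytokinesis, fell with both treatments and by more with CR high (-0.75 ± 0.06 with wortmannin and -1.09 ± 0.06 with CR high; 44.5 to 48.1, 36 to 37.8 and 78.2 to 79.1 CPM with wortmannin, CR high and vehicle). TOP2A, the topoisomerase that untangles sister chromosomes, was higher with wortmannin by 0.34 ± 0.05.

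DNA replication genes were near vehicle with wortmannin and lower with CR high. Of 36 listed members, 34 were called higher with wortmannin than with CR high (against 20.2% of all tested genes), 0 lower, and the median direct difference was 0.41. Against vehicle, 4 were higher and 4 lower with wortmannin, near the shares of all tested genes (13.4% and 11.9%), with a list median of -0.02. With CR high, 0 were higher and 34 lower (median -0.47), beside 18.5% and 16.7% of all tested genes. Over libraries, the list median relative to vehicle was 0.01, -0.04 and -0.04 with wortmannin and -0.49, -0.45 and -0.50 with CR high, so those groups lay well apart. The same medians for mitosis genes were -0.41, -0.43 and -0.46 with wortmannin and -0.67, -0.63 and -0.66 with CR high. Through the extract doses, the mitosis medians were -0.22 to -0.21 at the low, -0.37 to -0.32 at the medium and -0.67 to -0.63 at the high dose, which puts wortmannin between the medium and high doses on this list. The replication medians were -0.17 to -0.10, -0.27 to -0.18 and -0.50 to -0.45 at those doses.

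**Figure D2:**
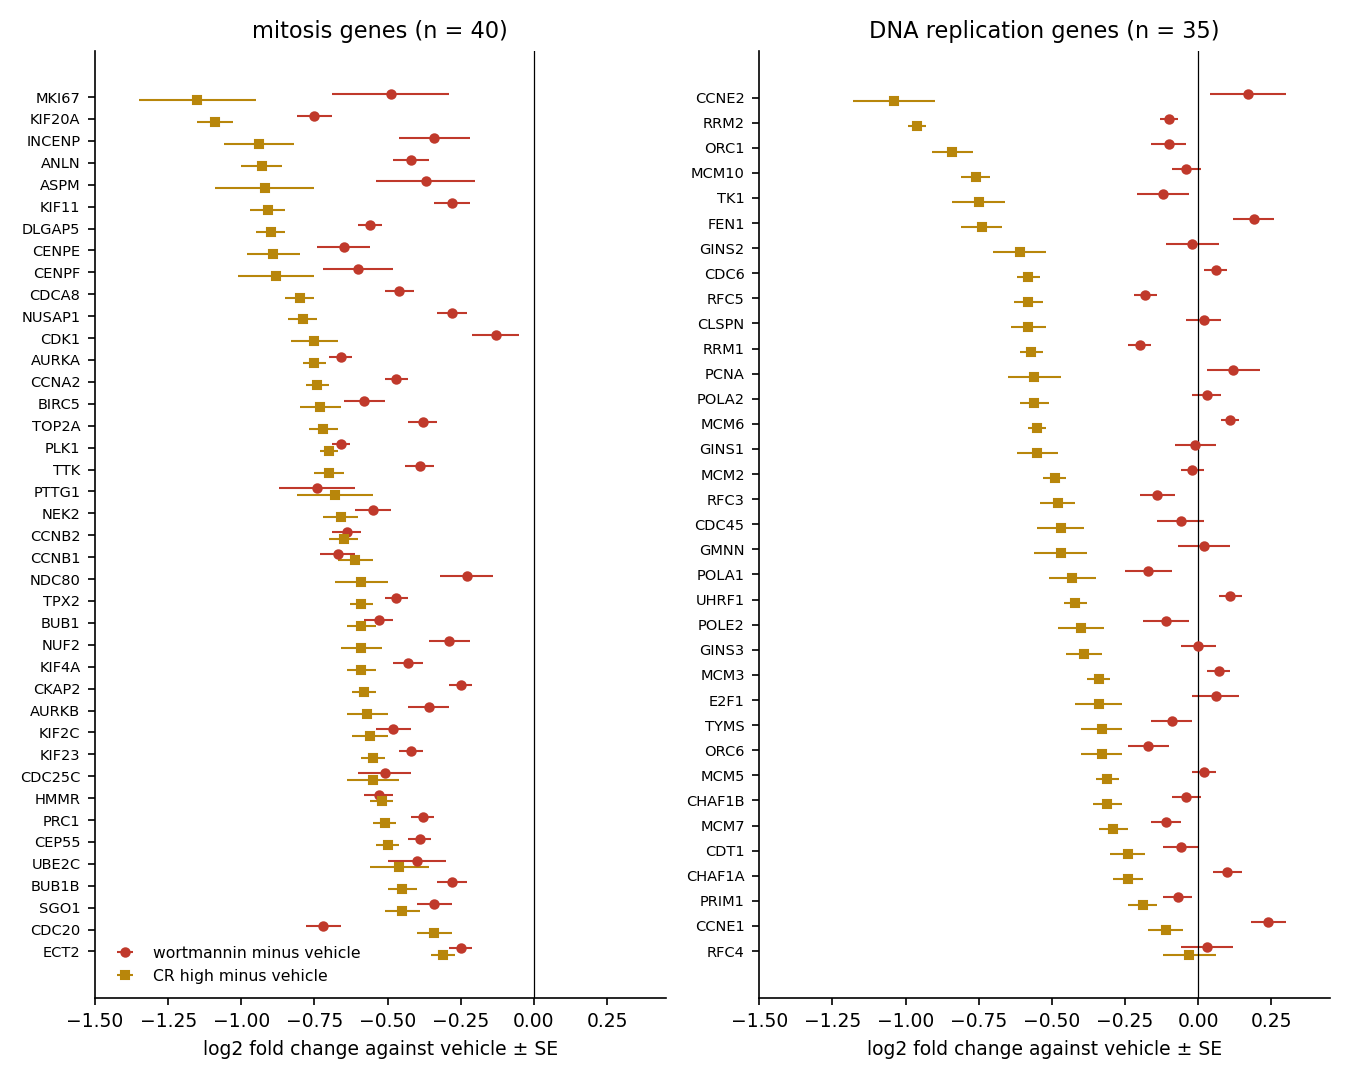
Log2 fold change from vehicle ± SE for each mitosis gene (left, n = 40) and the DNA replication genes drawn (right, n = 35), with wortmannin as circles and CR high as squares. Both treatments sit left of 0 for mitosis genes, while the replication genes spread around 0 with wortmannin and lie left of it with CR high.

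RRM2, the small subunit of ribonucleotide reductase, had 324, 311 and 298 CPM with wortmannin, 170, 175 and 170 CPM with CR high and 341, 332 and 329 CPM with vehicle. The direct difference was 0.86 ± 0.03 (edgeR adjusted p = 7.32e-26), while its small fall with wortmannin (-0.10 ± 0.03) was not called without wortmannin replicate 3 (adjusted p = 0.174) or vehicle replicate 1 (adjusted p = 0.102). MCM6, a subunit of the replicative helicase, had 174, 172 and 165 CPM with wortmannin, 109, 106 and 109 CPM with CR high and 158, 161 and 154 CPM with vehicle. It was higher with wortmannin than with CR high by 0.66 ± 0.03, and its call of 0.11 above vehicle was lost when wortmannin replicate 1 or 2 or vehicle replicate 3 was left out (adjusted p = 0.196, 0.0591 and 0.0706). CDC6, which loads that helicase, differed by 0.64 ± 0.04. FEN1, the flap endonuclease, was called higher than vehicle with wortmannin (0.19) and lower with CR high (-0.74).

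Promoters of listed genes are shown because the mitosis and replication lists, and the stress genes described next, moved as groups. The sequences are from RefSeq on GRCh38.p14 and run from 250 bases before to 50 after the annotated start, 5′ to 3′ on the gene's strand. Capitals in the CCNB2 and PLK1 promoters mark TTTGAA, the core of the cell cycle homology region, and CCAAT, the NF-Y box. Capitals mark TTTNGCGC, an E2F site, in CDC6, and TGATGNAA, the C/EBP-ATF response element read on either strand, in CHAC1 and ASNS.
CCNB2: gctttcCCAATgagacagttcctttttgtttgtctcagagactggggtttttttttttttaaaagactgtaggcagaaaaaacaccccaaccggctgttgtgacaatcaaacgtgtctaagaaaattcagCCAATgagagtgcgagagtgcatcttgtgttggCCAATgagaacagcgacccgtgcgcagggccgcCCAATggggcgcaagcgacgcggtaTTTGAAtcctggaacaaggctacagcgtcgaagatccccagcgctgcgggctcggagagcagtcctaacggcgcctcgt
PLK1: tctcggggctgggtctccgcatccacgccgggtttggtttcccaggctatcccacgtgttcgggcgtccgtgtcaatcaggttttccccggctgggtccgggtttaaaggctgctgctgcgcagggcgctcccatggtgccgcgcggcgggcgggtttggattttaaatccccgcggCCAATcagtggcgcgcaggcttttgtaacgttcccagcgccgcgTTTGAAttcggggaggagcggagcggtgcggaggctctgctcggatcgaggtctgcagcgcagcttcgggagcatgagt
CDC6: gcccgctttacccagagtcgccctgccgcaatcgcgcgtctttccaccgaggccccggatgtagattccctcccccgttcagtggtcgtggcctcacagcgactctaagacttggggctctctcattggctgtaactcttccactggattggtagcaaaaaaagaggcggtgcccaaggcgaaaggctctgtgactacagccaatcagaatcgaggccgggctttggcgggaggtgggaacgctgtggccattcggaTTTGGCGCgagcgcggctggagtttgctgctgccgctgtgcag
CHAC1: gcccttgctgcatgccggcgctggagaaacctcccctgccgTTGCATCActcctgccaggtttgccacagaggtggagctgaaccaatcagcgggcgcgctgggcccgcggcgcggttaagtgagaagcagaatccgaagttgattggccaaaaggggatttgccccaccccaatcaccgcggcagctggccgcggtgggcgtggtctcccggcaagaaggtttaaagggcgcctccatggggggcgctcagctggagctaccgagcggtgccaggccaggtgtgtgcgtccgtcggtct
ASNS: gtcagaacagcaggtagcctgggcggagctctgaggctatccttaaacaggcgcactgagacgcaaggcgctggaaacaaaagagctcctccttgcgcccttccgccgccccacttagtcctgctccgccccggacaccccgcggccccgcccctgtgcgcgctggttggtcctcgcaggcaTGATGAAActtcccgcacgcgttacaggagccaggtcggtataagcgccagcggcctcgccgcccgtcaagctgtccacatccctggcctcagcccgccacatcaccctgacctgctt
These windows lie at chr15:59104896-59105195 (CCNB2, plus strand), chr16:23678639-23678938 (PLK1, plus), chr17:40287629-40287928 (CDC6, plus), chr15:40953221-40953520 (CHAC1, plus) and chr7:97872359-97872658 (ASNS, minus). TTTGAA begins 29 bases before the start in both CCNB2 and PLK1. Searched on both strands, TTTGAA was found in 23 of the 35 mitosis members with a promoter in the table (65.7%, against 15.4% of 27305 promoters), CCAAT in 27 (77.1% against 35.7%) and both in 19 (54.3% against 6.08%). TTTNGCGC was found in 13 of 33 replication members (39.4% against 1.83%) and TGATGNAA in 6 of 28 stress response members (21.4% against 3.67%). TCACNCCAC, a sterol regulatory element not shown above, was found in 1 of 18 members of the cholesterol synthesis list described below (5.56% against 1.15%). No marked motif overlaps another in the sequences shown, and a match is a description of the sequence only.

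The integrated stress response moved in opposite directions. Of 33 tested members, 32 were called lower with wortmannin than with CR high (against 19.9% of all tested genes) and 0 higher, with a median of -1.68. Against vehicle, 27 were called lower and 1 higher with wortmannin (median -0.62), beside 11.9% and 13.4% of all tested genes. With CR high, 29 were called higher and 2 lower (median 1.14), beside 18.5% and 16.7%. In all, 25 members fell with wortmannin and rose with CR high (against 2.13% of all tested genes), 24 or 25 of them as single libraries were left out. The list median per library, relative to vehicle, was -0.58, -0.61 and -0.65 with wortmannin. It was 0.67 to 0.72 at the low, 0.89 to 0.93 at the medium and 1.13 to 1.16 at the high extract dose.

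ATF4, the transcription factor of the pathway, had 186, 169 and 162 CPM with wortmannin, 366, 368 and 369 CPM with CR high and 255, 258 and 251 CPM with vehicle (direct difference -1.09 ± 0.08). DDIT3 (CHOP), a stress transcription factor induced downstream, had 4.56, 4.5 and 5.13 CPM with wortmannin, 39.6, 37.3 and 39.1 CPM with CR high and 7.15, 8.82 and 9.30 CPM with vehicle. The 3 groups were apart in both genes. TRIB3, a pseudokinase that restrains ATF4 and AKT, was lower with wortmannin by 3.05 on the log2 scale, an 8.27-fold difference, with a change from vehicle of -0.71 ± 0.07 for wortmannin and 2.34 ± 0.07 for CR high.

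Among the enzymes, ASNS (asparagine synthetase, ENSG00000070669) had 39.3, 41.9 and 39.9 CPM with wortmannin, 336, 339 and 344 CPM with CR high and 123, 129 and 126 CPM with vehicle. It was 8.42-fold lower with wortmannin than with CR high (-3.07 ± 0.06, edgeR adjusted p = 7.3e-39). PSAT1, of serine synthesis, had 151 to 152 CPM with wortmannin, 734 to 763 CPM with CR high and 349 to 358 CPM with vehicle (-2.31 ± 0.04). PHGDH, which begins that route, differed by -2.32, MTHFD2, of mitochondrial folate metabolism, by -1.91 and PYCR1, of proline synthesis, by -1.74. Transporters were less uniform. The glycine transporter SLC6A9 fell with wortmannin and rose with CR high (-0.87 and 1.78), while SLC7A5, the carrier of large neutral amino acids, was called lower under both (-0.63 and -0.18) and SLC38A2, the carrier of small neutral ones, higher under both (0.18 and 0.69). SLC7A11, the cystine carrier, was called against vehicle under neither. CTH, which makes cysteine, was the member not called directly (0.32).

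**Figure D3:**
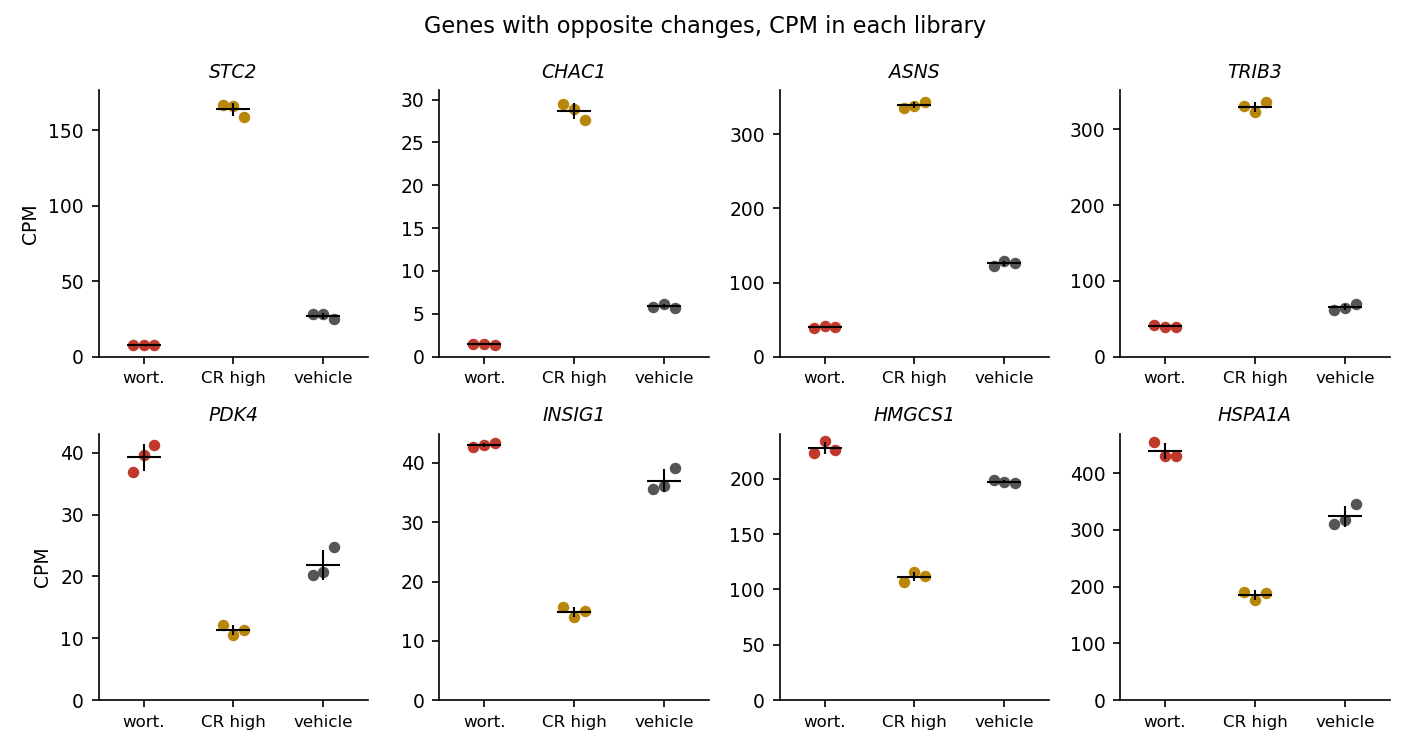
CPM in each library of 8 genes with opposite changes from vehicle, with wortmannin, CR high and vehicle from left to right; horizontal lines are means and vertical lines 1 SD (n = 3). STC2, CHAC1, ASNS and TRIB3 are lowest with wortmannin and highest with CR high, and PDK4, INSIG1, HMGCS1 and HSPA1A show the reverse order.

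Cytosolic tRNA synthetases, which load amino acids onto tRNA, moved in the same directions as the stress genes. Of 18, 16 were called lower with wortmannin than with CR high and 2 higher (median -0.94), beside 19.9% and 20.2% of all tested genes. In all, 12 fell with wortmannin and rose with CR high (against 2.13% of all tested genes). GARS1, the glycyl enzyme, had 138, 140 and 133 CPM with wortmannin, 432, 464 and 434 CPM with CR high and 227, 233 and 226 CPM with vehicle (direct difference -1.69 ± 0.04). YARS1 (-1.57 ± 0.04), MARS1 (-1.5 ± 0.04) and AARS1 (-1.45 ± 0.04) were close to it, and the higher ones were QARS1 (0.22) and RARS1 (0.14). EIF4EBP1, an inhibitor of translation initiation and an mTOR substrate, also had opposite calls, with 57.2 to 62.1 CPM with wortmannin, 187 to 199 CPM with CR high and 84.8 to 94.2 CPM with vehicle.

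Ribosome biogenesis genes were lower with wortmannin and mostly near vehicle with CR high. Of 28, 23 were called lower with wortmannin than with CR high and 1 higher (median -0.38), beside 19.9% and 20.2% of all tested genes. Against vehicle 22 were called lower and 0 higher with wortmannin (median -0.34), beside 11.9% and 13.4% of all tested genes. With CR high, 7 were called higher and 2 lower (median 0.06), beside 18.5% and 16.7%. NOP2, an rRNA methyltransferase, had 119, 117 and 119 CPM with wortmannin, 171, 172 and 181 CPM with CR high and 157, 152 and 157 CPM with vehicle (direct difference -0.56 ± 0.04). DKC1, of snoRNA particles, differed by -0.63 ± 0.05. Of 32 genes for cytosolic ribosomal proteins, 16 were called lower with wortmannin than with CR high (against 19.9% of all tested genes) and 0 higher (median -0.26). All 32 had the 3 wortmannin libraries below the 3 CR high libraries, a separation found in either direction in 54.7% of tested genes. These proteins' genes were called higher than vehicle with CR high in 29 cases and higher than ZF low in 4 (against 18.5% and 17.8% of all tested genes). With wortmannin they were called against vehicle in 0 cases in the main edgeR fit. With the length slope as a covariate, RPL4 and RPS23 of this list were called higher (0.10 and 0.13, edgeR adjusted p = 0.00126 and 0.00254). The list median against vehicle was 0.32, 0.35 and 0.36 at the low, medium and high extract doses, and 0.15 with ZF low, where 0 were called. In the ZF low libraries the median was 0.12, 0.03 and 0.31, at length slopes of 0.247, 0.319 and 0.19. Whether the rise with CR high follows transcript length was not tested.

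Cholesterol synthesis genes showed the reverse pattern. Of 25 listed members, 24 were called higher with wortmannin than with CR high (against 20.2% of all tested genes) and 0 lower, with a median of 0.95. Against vehicle, 17 were called higher and 0 lower with wortmannin (median 0.22), beside 13.4% and 11.9% of all tested genes. With CR high, 1 was called higher and 23 lower (median -0.68), beside 18.5% and 16.7%. In all, 16 members rose with wortmannin and fell with CR high (against 2.08% of all tested genes), 13 to 17 as single libraries were left out. Library medians relative to vehicle were 0.21, 0.22 and 0.22 with wortmannin, and -0.31 to -0.24, -0.45 to -0.39 and -0.66 to -0.63 at the low, medium and high extract doses.

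HMGCS1, an early enzyme of the mevalonate pathway, had 223, 234 and 226 CPM with wortmannin, 107, 116 and 112 CPM with CR high and 199, 197 and 196 CPM with vehicle. INSIG1, a sterol-sensing retention protein of the endoplasmic reticulum, had 42.7, 43.0 and 43.4 CPM with wortmannin, 15.7, 14 and 15.0 CPM with CR high and 35.6, 36.1 and 39.2 CPM with vehicle. In both the groups were apart, with the wortmannin libraries closer to vehicle than the CR high libraries were. The direct difference was 1.03 ± 0.04 for HMGCS1 and 1.53 ± 0.06 for INSIG1 (edgeR adjusted p = 5.35e-25 and 4.31e-27). TM7SF2, a sterol reductase, was the member called higher under both (1.18 and 0.29). Fatty acid synthesis genes were called higher with wortmannin than with CR high in 11 of 13 tested members and lower in 1 (median 0.46). The shares of all tested genes were 20.2% and 19.9%. SCD, the desaturase, had 974 to 1030 CPM with wortmannin, 436 to 460 CPM with CR high and 904 to 946 CPM with vehicle.

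FOXO target and insulin signalling genes, many of which PI3-kinase activity normally keeps low through AKT, included members that rose with wortmannin. Of 24 tested, 7 were called higher and 0 lower than vehicle with wortmannin, beside 13.4% and 11.9% of all tested genes. With CR high, 2 were called higher and 5 lower, beside 18.5% and 16.7%, so the lower count was near its share. PDK4, a kinase that closes the entry of pyruvate into mitochondria, had 36.9, 39.6 and 41.3 CPM with wortmannin, 12.1, 10.5 and 11.4 CPM with CR high and 20.2, 20.7 and 24.7 CPM with vehicle (direct difference 1.79 ± 0.09, adjusted p = 1.63e-21). IRS2, an adaptor of the insulin receptor, also rose with wortmannin (0.29 ± 0.06) and fell with CR high (-0.36 ± 0.06). ERBB3, a receptor of the epidermal growth factor family, was higher than vehicle with wortmannin (0.70 ± 0.11; 10.0 to 11.5 against 6.59 to 7.02 CPM), with a value of 0.07 ± 0.11 for CR high. SGK1, a kinase downstream of PI3-kinase, had 49.9 to 52.3 CPM with wortmannin, 20.5 to 21.7 CPM with CR high and 48.9 to 51.5 CPM with vehicle. HSPA1A, an inducible heat shock protein, had opposite calls (0.44 ± 0.07 and -0.81 ± 0.07), while 7 of 16 heat shock genes were called lower with both (against 4.35% of all tested genes).

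**Figure D4:**
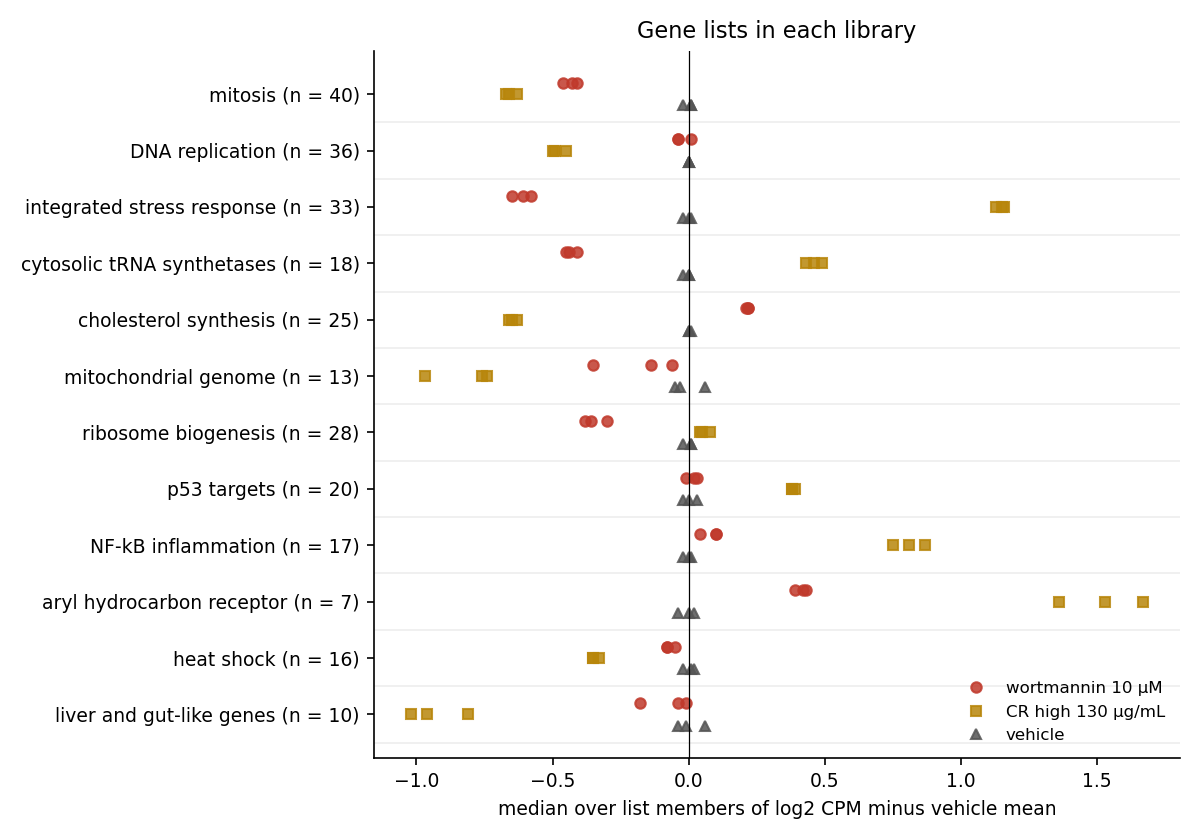
Median over the members of each list of log2 CPM minus the vehicle mean, in each library of wortmannin, CR high and vehicle, for 12 lists. Wortmannin and CR high lie on the same side of vehicle for mitosis genes and aryl hydrocarbon receptor targets, and on opposite sides for the integrated stress response, tRNA synthetases and cholesterol synthesis. Heat shock and mitochondrial genome medians also lie below vehicle with both, by less with wortmannin. Ribosome biogenesis medians lie on opposite sides, close to vehicle with CR high.

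Several lists changed with CR high and stayed near vehicle with wortmannin. Of 20 p53 targets, 15 were called higher and 0 lower than vehicle with CR high (against 18.5% and 16.7% of all tested genes). With wortmannin, 2 were called higher and 2 lower than vehicle (against 13.4% and 11.9%). Between the treatments, 16 were called lower with wortmannin than with CR high and 0 higher (against 19.9% and 20.2%). CDKN1A (p21), an inhibitor of cyclin-dependent kinases, had 109, 119 and 115 CPM with wortmannin, 199, 199 and 198 CPM with CR high and 110, 105 and 118 CPM with vehicle (direct difference -0.80 ± 0.05). TNFRSF10B, a death receptor, and GDF15, a stress hormone, differed by -1.01 ± 0.06 and -1.59 ± 0.09, with wortmannin values of -0.06 ± 0.06 and -0.07 ± 0.09 from vehicle. Of 17 tested NF-kB and inflammation genes, 13 were called lower with wortmannin than with CR high and 1 higher (against 19.9% and 20.2%). Of the same genes, 14 were called higher than vehicle with CR high (against 18.5%) and 2 with wortmannin (against 13.4%). CXCL2, a neutrophil chemokine, had 2.40, 2.23 and 2.53 CPM with wortmannin, 10.4, 10.8 and 10.3 CPM with CR high and 2.04, 2.27 and 3.05 CPM with vehicle. GREM1, a secreted BMP antagonist, had 5.89 to 6.77 CPM with wortmannin, 38.2 to 43.4 CPM with CR high and 4.43 to 5.37 CPM with vehicle. FGB, the fibrinogen beta chain, differed the other way, with 146 to 150 CPM with wortmannin, 45.8 to 48.9 CPM with CR high and 156 to 165 CPM with vehicle. Some fits called these genes between wortmannin and vehicle, unlike the main fit. In the 3 groups alone and with the length slope, GREM1 was called higher (0.31 in each, edgeR adjusted p = 0.0266 and 0.0382). FGB was called lower in those fits (-0.10 in each, edgeR adjusted p = 0.0403 and 0.0246) and by DESeq2 (-0.12, adjusted p = 0.0461).

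Some genes outside the cell cycle also rose or fell under both treatments. Of 7 tested aryl hydrocarbon receptor targets, 4 were called higher than vehicle with wortmannin and 7 with CR high (against 13.4% and 18.5% of all tested genes). All 7 were called lower with wortmannin than with CR high (against 19.9%). One of the 4, AHRR, the repressor of that receptor, lost its call with any of 5 libraries left out, which were wortmannin replicates 1 and 3 and the 3 vehicle replicates (0.42 to 0.55, edgeR adjusted p = 0.0502 to 0.132), and without the filter on low counts (adjusted p = 0.0505). CYP1B1, a cytochrome P450 and standard target of that receptor, had 79.3, 73.8 and 77.7 CPM with wortmannin, 194, 199 and 192 CPM with CR high and 56.4, 54.7 and 53.3 CPM with vehicle. CYP1A1, another such target, was called with CR high alone (2.87 ± 0.20), with a wortmannin value of 0.47 ± 0.24. CXCL8, a neutrophil chemokine, had 1.62, 2.36 and 2.31 CPM with wortmannin, 3.67, 4.29 and 4.32 CPM with CR high and 1.12, 0.941 and 0.568 CPM with vehicle. CACNG6, a calcium channel subunit, stood at 18.7 to 21.0 CPM with wortmannin, 20.6 to 21.3 CPM with CR high and 9.02 to 10.7 CPM with vehicle, and was not called directly (-0.08 ± 0.09). CASP4, an inflammatory caspase (-0.04 ± 0.17), and PCDH1, a protocadherin (0.00 ± 0.13), were likewise higher than vehicle under both and not called directly.

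Among shared falls, H19, an imprinted long non-coding RNA, had 42.5, 42.6 and 42.4 CPM with wortmannin, 28.9, 20.3 and 26.4 CPM with CR high and 79.8, 79.6 and 95.8 CPM with vehicle. IGF2, the growth factor at the same imprinted locus, was higher than vehicle under both, with 13.1 to 14.5 CPM with wortmannin, 8.38 to 10.5 CPM with CR high and 5.02 to 6.56 CPM with vehicle. NR4A3, an orphan nuclear receptor of the early response, fell with both (-0.86 ± 0.14 and -2.18 ± 0.16), and KRT4, a keratin of stratified epithelium, did so to levels that overlapped (14.1 to 16.4 CPM with wortmannin, 12.3 to 14.6 CPM with CR high, 26.5 to 28.6 CPM with vehicle). CCND3, a G1 cyclin, was lower with both (-0.33 ± 0.05 and -1.12 ± 0.05), and CDKN1B (p27), a cyclin-dependent kinase inhibitor, was called under neither (-0.05 and -0.09).

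Lists of other pathways are read against the 20.2% of all tested genes called higher and the 19.9% called lower with wortmannin than with CR high. Of 21 immediate early and ERK feedback genes, 4 were called higher and 13 lower with wortmannin than with CR high (median -0.40), with FOSL1, an AP-1 subunit, at -2.06 ± 0.07 and NR4A1, an orphan nuclear receptor, at 1.45 ± 0.06. Of 23 NRF2 antioxidant genes, 1 was called higher and 13 lower, and HMOX1, which degrades haem, had opposite changes from vehicle (-0.67 with wortmannin and 0.45 with CR high). Of 32 autophagy and lysosome genes, 15 were called higher and 6 lower, and SQSTM1, the cargo receptor p62, was lower by 0.75 on the log2 scale. Of 21 TGF-beta and matrix genes, 11 were called higher and 5 lower, with TGM2, a transglutaminase, at 1.11 ± 0.05 and CCN1, a matrix-associated signalling protein, at -1.13 ± 0.06. ER chaperone genes were called higher in 10 and lower in 4 of 20, with CALR, a calcium-binding chaperone, at 0.86 ± 0.05 and XBP1, a transcription factor of the unfolded protein response, at -0.97 ± 0.09. Of 22 glycolysis genes, 6 were called higher and 6 lower, not far from those shares, with SLC2A3, a glucose carrier, at 1.23 ± 0.06 and HK2, a hexokinase, at -2.06 ± 0.20. Against vehicle, 5 of the 22 were called higher and 11 lower with wortmannin (beside 13.4% and 11.9% of all tested genes). With CR high, 4 were called higher and 8 lower (beside 18.5% and 16.7%). Lower under both were 5 (beside 4.35%).

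The remaining lists are given as counts called higher and lower with wortmannin than with CR high, beside 20.2% and 19.9% of all tested genes, and counts near those shares are no result about a list. These were 9 and 2 of 16 heat shock genes, 8 and 2 of 24 FOXO and insulin genes, 8 and 3 of 28 PI3-kinase and mTOR components and 6 and 6 of 18 G1 cyclins and inhibitors. They were 6 and 3 of 17 hypoxia genes, 5 and 2 of 20 interferon genes, 2 and 2 of 11 BMP genes, 1 and 9 of 31 nuclear respiratory chain genes and 6 and 1 of 10 liver and gut-like genes. VEGFA, the angiogenic growth factor on the hypoxia list, was -1.20 ± 0.05, and OAS1, an interferon-induced antiviral enzyme, 0.98 ± 0.07. Of the A549 identity list, 13 of 20 passed the filter on low counts, and 6 were called higher and 3 lower, with the keratin KRT8 at 0.67 ± 0.08 and the adhesion protein CDH1 at 0.69 ± 0.10. The 3 lower members, named after their values were seen, were LAMP3, a lysosomal membrane protein (-2.84 ± 0.35), the keratin KRT7 (-0.32 ± 0.09) and AKR1B10, an aldo-keto reductase (-0.34 ± 0.07). Surfactant genes did not pass that filter. Of the blood and the fibroblast and endothelial markers, 2 and 4 passed, and 1 and 2 of these were called higher with wortmannin.

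RNA of the mitochondrial genome separated the treatments in both directions. Of 13 protein-coding genes, 10 were called higher with wortmannin than with CR high (against 20.2% of all tested genes) and 0 lower (median 0.61). The number called higher was 8 to 11 as single libraries were left out. Against vehicle, 0 were called with wortmannin in the main edgeR fit (median -0.16). Without the filter on low counts, MT-ND1 was called lower than vehicle with wortmannin (-0.29, edgeR adjusted p = 5.92e-05). With CR high, 12 were called lower than vehicle (median -0.80), against 16.7% of all tested genes. At the medium dose, 3 were called higher and 10 lower (median -1.10, highest value 1.22), beside 2081 and 1898 of 17129 tested genes. At the low dose, 4 were called higher and 6 lower (median -0.39, highest value 2.52), beside 1457 and 1567. The fall at the high dose was thus not shared by all 13 genes at the lower doses. MT-CO1, a subunit of cytochrome c oxidase, had 15500, 17600 and 17400 CPM with wortmannin, 8460, 7970 and 7450 CPM with CR high and 17200, 16400 and 16800 CPM with vehicle (direct difference 1.08 ± 0.12).

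The mitochondrial ribosomal RNAs went the other way. MT-RNR1 (12S rRNA, ENSG00000211459, chrM:648-1601) had 1040, 1280 and 1170 CPM with wortmannin, 21100, 23800 and 22000 CPM with CR high and 1580, 1440 and 1580 CPM with vehicle. It was 19.1-fold lower with wortmannin than with CR high (-4.26 ± 0.10, edgeR adjusted p = 3.94e-35). MT-RNR2 (16S rRNA), which was named after its values were seen, was 2.51-fold lower (-1.33 ± 0.08). The pair made up 1.88, 2.19 and 2.17% of counts with wortmannin and 6.61, 7.34 and 6.70% with CR high, beside 2.33 to 2.52% with vehicle. At the low and medium extract doses the share was 8.90 to 11.1% and 11.3 to 12.6%, above that of the high dose. The sources used here do not say how messenger RNA was selected for these libraries.

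**Figure D5:**
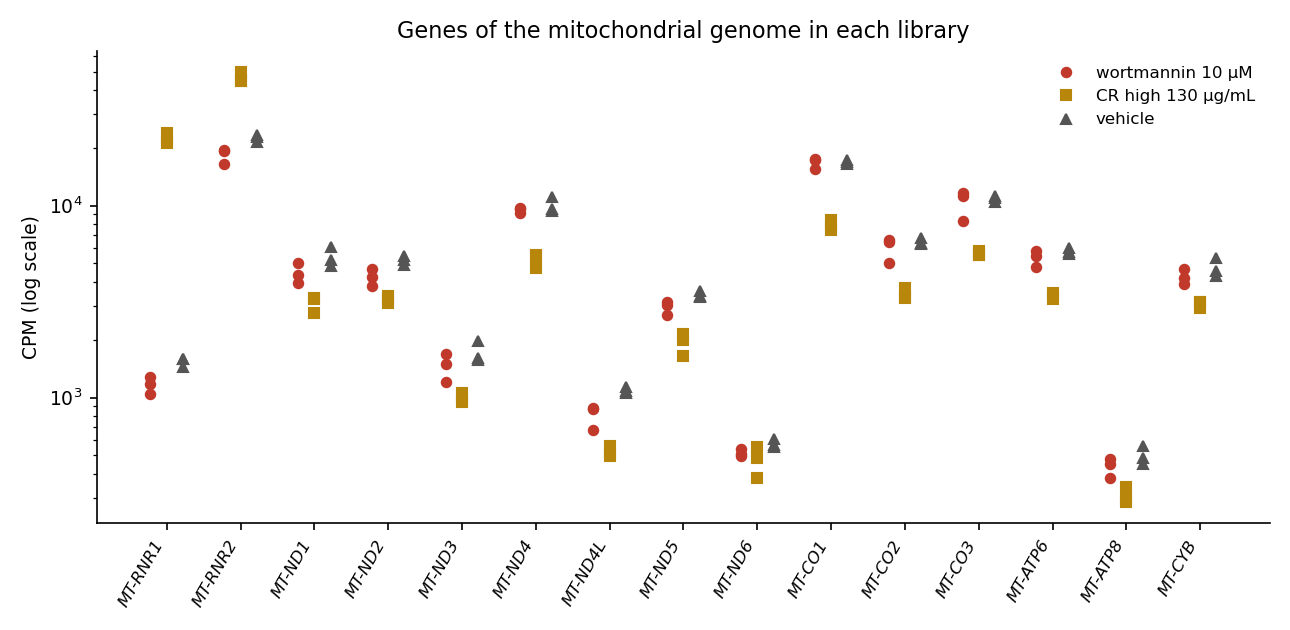
CPM on a log scale of the 15 mitochondrially encoded rRNA and protein-coding genes in each library of wortmannin, CR high and vehicle. The CR high libraries are above the other groups for MT-RNR1 and MT-RNR2 and below the vehicle libraries for the 13 protein-coding genes.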

How the data were processed

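RNA of A549 cells was made into directional libraries and read in pairs of 100 bases, per the labels' protocols. The deposited table holds each gene's estimated count, not normalised, judging by its decimals and by totals that vary. The submitters' processing notes list RSEM 1.3.3, STAR 2.7.3a, FastQC 0.11.9, Trim Galore 0.6.5 and GRCh38. The sources used here give neither annotation release nor strand setting, so overlapping or antisense genes may share reads. Of 269 columns, 209 were not used. Groups followed the sample titles. Whether replicates came from separate cultures is not stated, so p-values measure the spread between these libraries, which may be technical; 0 replicate columns were identical.

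Counts were rounded and fitted with edgeR 4.0.16 (R 4.3.3; TMM, filterByExpr, robust quasi-likelihood) over all 60 libraries, 1 column per group, leaving 17129 genes and 40 residual degrees of freedom; the biological coefficient of variation was 7.04%. Rows with no gene name held 0.0579% of counts. On simulated counts for wortmannin against CR high (17129 genes), 74 of 100 genes changed 1.5-fold and 83 of 100 changed 2-fold were recovered, with 8 others called. No other gene differed between these groups in the simulation, whereas 40.0% were called in the data, so recovery in the data may differ. Alternatives were DESeq2 1.42.0, its size factors, no filter, fewer libraries, each library left out, a replicate block, a transcript length slope, stricter sorting and other groups in place of vehicle.

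The comparison, its 30 gene lists and its tests were chosen with earlier results of these data known. Named genes needed a current symbol and a mean log2 CPM of at least 1. They were the 8 largest called differences each way with non-overlapping libraries, 6 per sorted class by the smaller of the 2 changes, all mitosis genes, up to 4 per other list by direct p, and a fixed panel. Some genes that this rule selects are not reported here. Exceptions within a list are named as such after their values were seen. CPM used TMM-adjusted totals.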

Additional observations from a re-analysis of the deposited data

How the results depend on the processing

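The direct comparison gave 5947 to 6810 called genes as single libraries were left out, and the calls against vehicle 3415 to 4314 for wortmannin and 5107 to 6014 for CR high. Without each library in turn, the genes higher under both numbered 574 to 719, lower under both 557 to 793, higher with wortmannin and lower with CR high 247 to 328, and the reverse 269 to 376. In that order of classes, an adjusted p under 0.01 gave 445, 445, 202 and 233 genes, and at least 1.5-fold in both gave 179, 30, 18 and 33. With the transcript length slope as a covariate the classes held 1243, 1445, 611 and 713 genes and wortmannin against vehicle 6665 calls. Only the libraries of the 3 groups gave 1138 genes lower under both and 553 lower with wortmannin and higher with CR high. CR high against CR low, added after seeing the data, gave 501 genes higher under both. The causes were not tested, beyond fewer genes passing a stricter rule. Replicate numbers did not pair the libraries (deviations of same-numbered libraries correlated at -0.128 to 0.0838), and a replicate block gave 6811 direct calls. None of the named genes' called fold changes changed sign under the alternatives run for them; of these results, 8178 kept their side of the threshold, 57 gained it and 90 lost it. Size factors of DESeq2 moved the median fold change by at most 0.015, but turned the balance of calls for wortmannin against vehicle (2109 higher and 2283 lower, against 2295 and 2045) and of genes higher and lower under both (707 and 879, against 785 and 745). How depth limits single genes was not tested.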
